A study of Mus musculus and Homo sapiens with 40 samples.

Results

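The chromatin at 10 inflammatory chemokine genes, Cxcl1, Cxcl2, Cxcl9, Cxcl10, Cxcl11, Ccl2, Ccl3, Ccl4, Ccl5 and Ccl9, was described from ChIP-seq peaks of a mouse haematopoietic progenitor line. These are 10 of the 21757 protein-coding genes of the GENCODE annotation of build GRCm39 (mm39). Each gene body was taken with 50 kb on both sides, and overlapping stretches were joined, so that a peak between neighbouring genes was counted 1 time. This gave 4 loci. The Cxcl1-Cxcl2 locus (chr5:90989094-91103797) and the Cxcl9-Cxcl10-Cxcl11 locus (chr5:92419206-92563344) lie on chromosome 5. The Ccl2 locus (chr11:81876397-81978279) and the Ccl3-Ccl4-Ccl5-Ccl9 locus (chr11:83366602-83605509) lie on chromosome 11. A peak belonged to a locus when its summit fell inside it.

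Chemokines are small secreted proteins that draw leukocytes along a gradient by binding to G protein-coupled receptors. Cxcl1 and Cxcl2 bind Cxcr2 and recruit neutrophils, Cxcl9, Cxcl10 and Cxcl11 are interferon-induced ligands of Cxcr3 that recruit T cells and NK cells, and Ccl2 recruits Ccr2-positive monocytes. Ccl3, Ccl5 and Ccl9 act on Ccr1, Ccl4 attracts monocytes and T cells, and in macrophages most of these genes are induced by NF-kB after recognition of bacterial products.

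The study asked how the long (p42) and short (p30) isoforms of the transcription factor CEBPA differ at inflammatory genes. HPC-7 cells, which have very low endogenous CEBPA, were transduced with a retrovirus carrying either p42 or p30 fused to the ERT2 domain of the oestrogen receptor, which holds the protein outside the nucleus until 4-hydroxytamoxifen is given. The study's general methods state that cells with ERT2 fusions received it the day before an experiment, but the sample labels do not state it for these libraries. Each isoform was thus studied in a cell line of its own, and isoform and cell line cannot be told apart. H3K27ac, a histone mark of active promoters and enhancers, was profiled in p42 and p30 cells without stimulation and after 2 h with 100 ng/mL LPS, the bacterial cell wall component lipopolysaccharide, in 3 samples per group. H3K4me1, a mark of enhancers whether active or not, was profiled in 2 unstimulated samples per line. CEBPA binding was profiled in 1 unstimulated sample per line with an antibody to CEBPA and in 1 with an antibody to the oestrogen receptor part of the fusion protein (anti-ER). All 4 groups carry an ERT2 fusion, and no line without a CEBPA transgene entered these comparisons.

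The values are 10 peak lists, each called by the authors from 1 library or from pooled replicates. No list therefore has a replicate, no test between lists was possible and the sequencing depth behind a peak is unknown. A peak's rank is its place in its own list by the authors' -log10 p, rank 1 being the strongest, and its fold is the enrichment over the input library. The 4 H3K27ac lists held 107141 to 142419 peaks, the H3K4me1 lists 134658 and 168035, and the CEBPA lists 23248 to 47517. Promoters of 10 of 10 haematopoietic progenitor markers carried H3K27ac in all 4 lists, as did 5 of 6 macrophage markers, whereas 0 of 4 fibroblast markers did. Of 4 T cell markers, 1 carried it in 3 of the lists and 2 in the p30 LPS list, and of 4 B cell markers 1 did, in the p30 LPS list only. Of 6 neutrophil markers, 4 carried it in both p42 lists, 2 in the untreated p30 list and 3 in the p30 LPS list. Whether this has a part in the differences between the lines given below was not tested.

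The letters of the NF-kB motif were found at most of the member promoters. Within 250 bases upstream of the main start, they (GGG, any 3 bases, TTCC), on either strand, were present in 6 of 10 members (Cxcl1, Cxcl2, Cxcl10, Ccl2, Ccl5 and Ccl9) and in 4.71% of all protein-coding promoters. The CEBP motif TTGCNNAA was present in 0 of 10 and in 9.34% of all. The interferon-stimulated response element (GAAA, any 2 bases, GAAA) was found in Cxcl10 alone, against 3.32% of all promoters, and the AP-1 motif TGANTCA in Cxcl10 and Ccl9, against 6.18%. A match is a description of the letters, not a site of binding. Cxcl1, Cxcl2, Cxcl10 and Ccl5 are shown because they are the 4 promoters with more than 1 NF-kB match. The sequences are from GRCm39, run 5′ to 3′ in the direction of the gene and end 1 base before the start. Capitals mark matches of the NF-kB motif and, in Cxcl10, of the interferon-stimulated response element, which is the first run of capitals.
Cxcl1 (chr5:91038844-91039093, plus strand): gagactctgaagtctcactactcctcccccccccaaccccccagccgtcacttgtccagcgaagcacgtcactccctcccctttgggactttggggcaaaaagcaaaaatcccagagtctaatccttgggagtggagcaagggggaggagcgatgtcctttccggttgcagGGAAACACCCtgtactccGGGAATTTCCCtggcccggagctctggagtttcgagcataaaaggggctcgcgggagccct
Cxcl2 (chr5:91051480-91051729, plus strand): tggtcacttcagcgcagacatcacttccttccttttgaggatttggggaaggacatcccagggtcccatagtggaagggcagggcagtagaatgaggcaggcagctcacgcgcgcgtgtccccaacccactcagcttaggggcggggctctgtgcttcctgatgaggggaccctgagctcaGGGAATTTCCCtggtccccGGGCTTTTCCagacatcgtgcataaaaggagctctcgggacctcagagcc
Cxcl10 (chr5:92496749-92496998, minus strand): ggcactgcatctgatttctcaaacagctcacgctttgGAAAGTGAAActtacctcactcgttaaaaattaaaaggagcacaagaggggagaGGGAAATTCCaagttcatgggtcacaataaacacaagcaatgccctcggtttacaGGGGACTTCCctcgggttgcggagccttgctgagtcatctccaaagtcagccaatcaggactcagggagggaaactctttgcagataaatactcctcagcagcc
Ccl5 (chr11:83421346-83421595, minus strand): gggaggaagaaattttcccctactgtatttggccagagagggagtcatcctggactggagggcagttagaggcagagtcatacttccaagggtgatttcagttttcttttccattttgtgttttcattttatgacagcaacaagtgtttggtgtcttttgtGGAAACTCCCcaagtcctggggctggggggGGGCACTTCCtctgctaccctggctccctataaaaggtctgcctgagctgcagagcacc
In Cxcl1 and Cxcl2 the longest run of capitals is 1 sequence that matches on both strands, which begins at -61 and -69 from the start. In Cxcl10 the NF-kB matches start at -159 and -104 and the interferon-stimulated response element at -213.

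CEBPA peaks lay mostly away from these promoters, and the letters of the CEBP motif were found under them. In 201 bases around the summit, TTGCNNAA was present at 26 of the 43 CEBPA sites of the 4 loci (60.5%) and at 46.1% of all 63759 sites of the genome. Among sites held by all 4 CEBPA lists the numbers were 10 of 14 at the loci and 61.2% in the genome. The NF-kB motif was present at 0 of 43 and the AP-1 motif at 9 of 43 (20.9%), against 1.84% and 7.83% of all sites. The windows below are the strongest site of each locus held by all 4 lists, by rank in the p42 anti-CEBPA list, and a further site upstream of Cxcl11. Distances are from the main start of the nearest member in the direction of that gene, negative values being upstream. Capitals mark the CEBP motif on either strand.
Ccl9 -24.9 kb (chr11:83494312-83494512, plus strand): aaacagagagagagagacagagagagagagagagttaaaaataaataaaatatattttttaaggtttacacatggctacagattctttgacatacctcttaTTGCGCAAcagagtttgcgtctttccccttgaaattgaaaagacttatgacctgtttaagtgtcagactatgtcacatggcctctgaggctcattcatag
Ccl2 -28.6 kb (chr11:81897682-81897882, plus strand): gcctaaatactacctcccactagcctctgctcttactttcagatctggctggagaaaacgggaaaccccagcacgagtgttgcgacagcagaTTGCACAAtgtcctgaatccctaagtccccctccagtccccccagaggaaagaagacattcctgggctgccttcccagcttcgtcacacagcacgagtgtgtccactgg
Cxcl1 -9.3 kb (chr5:91029701-91029901, plus strand): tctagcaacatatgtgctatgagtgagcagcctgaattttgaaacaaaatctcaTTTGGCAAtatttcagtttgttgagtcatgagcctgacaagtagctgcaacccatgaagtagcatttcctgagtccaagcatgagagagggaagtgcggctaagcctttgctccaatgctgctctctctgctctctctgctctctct
Cxcl11 -5.1 kb (chr5:92518343-92518543, plus strand): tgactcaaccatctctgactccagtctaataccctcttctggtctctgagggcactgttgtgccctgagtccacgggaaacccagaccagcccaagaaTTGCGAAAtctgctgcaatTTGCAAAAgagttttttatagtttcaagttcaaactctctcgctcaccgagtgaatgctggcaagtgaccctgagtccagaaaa
Cxcl11 -3.0 kb (chr5:92516278-92516478, plus strand): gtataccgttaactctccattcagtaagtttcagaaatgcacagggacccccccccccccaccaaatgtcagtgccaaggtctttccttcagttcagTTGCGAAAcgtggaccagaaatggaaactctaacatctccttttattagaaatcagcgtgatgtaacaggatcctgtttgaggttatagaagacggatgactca
In 4 of these 5 windows, all but the one upstream of Cxcl1, a match lay within 5 bases of the summit.

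The peak map of the loci shows where the 10 lists fell. H3K27ac and H3K4me1 were dense over Ccl5, Ccl9, Ccl3 and Ccl4 and sparse at the other loci, where the marks formed a few separate regions.

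**Figure D1:**
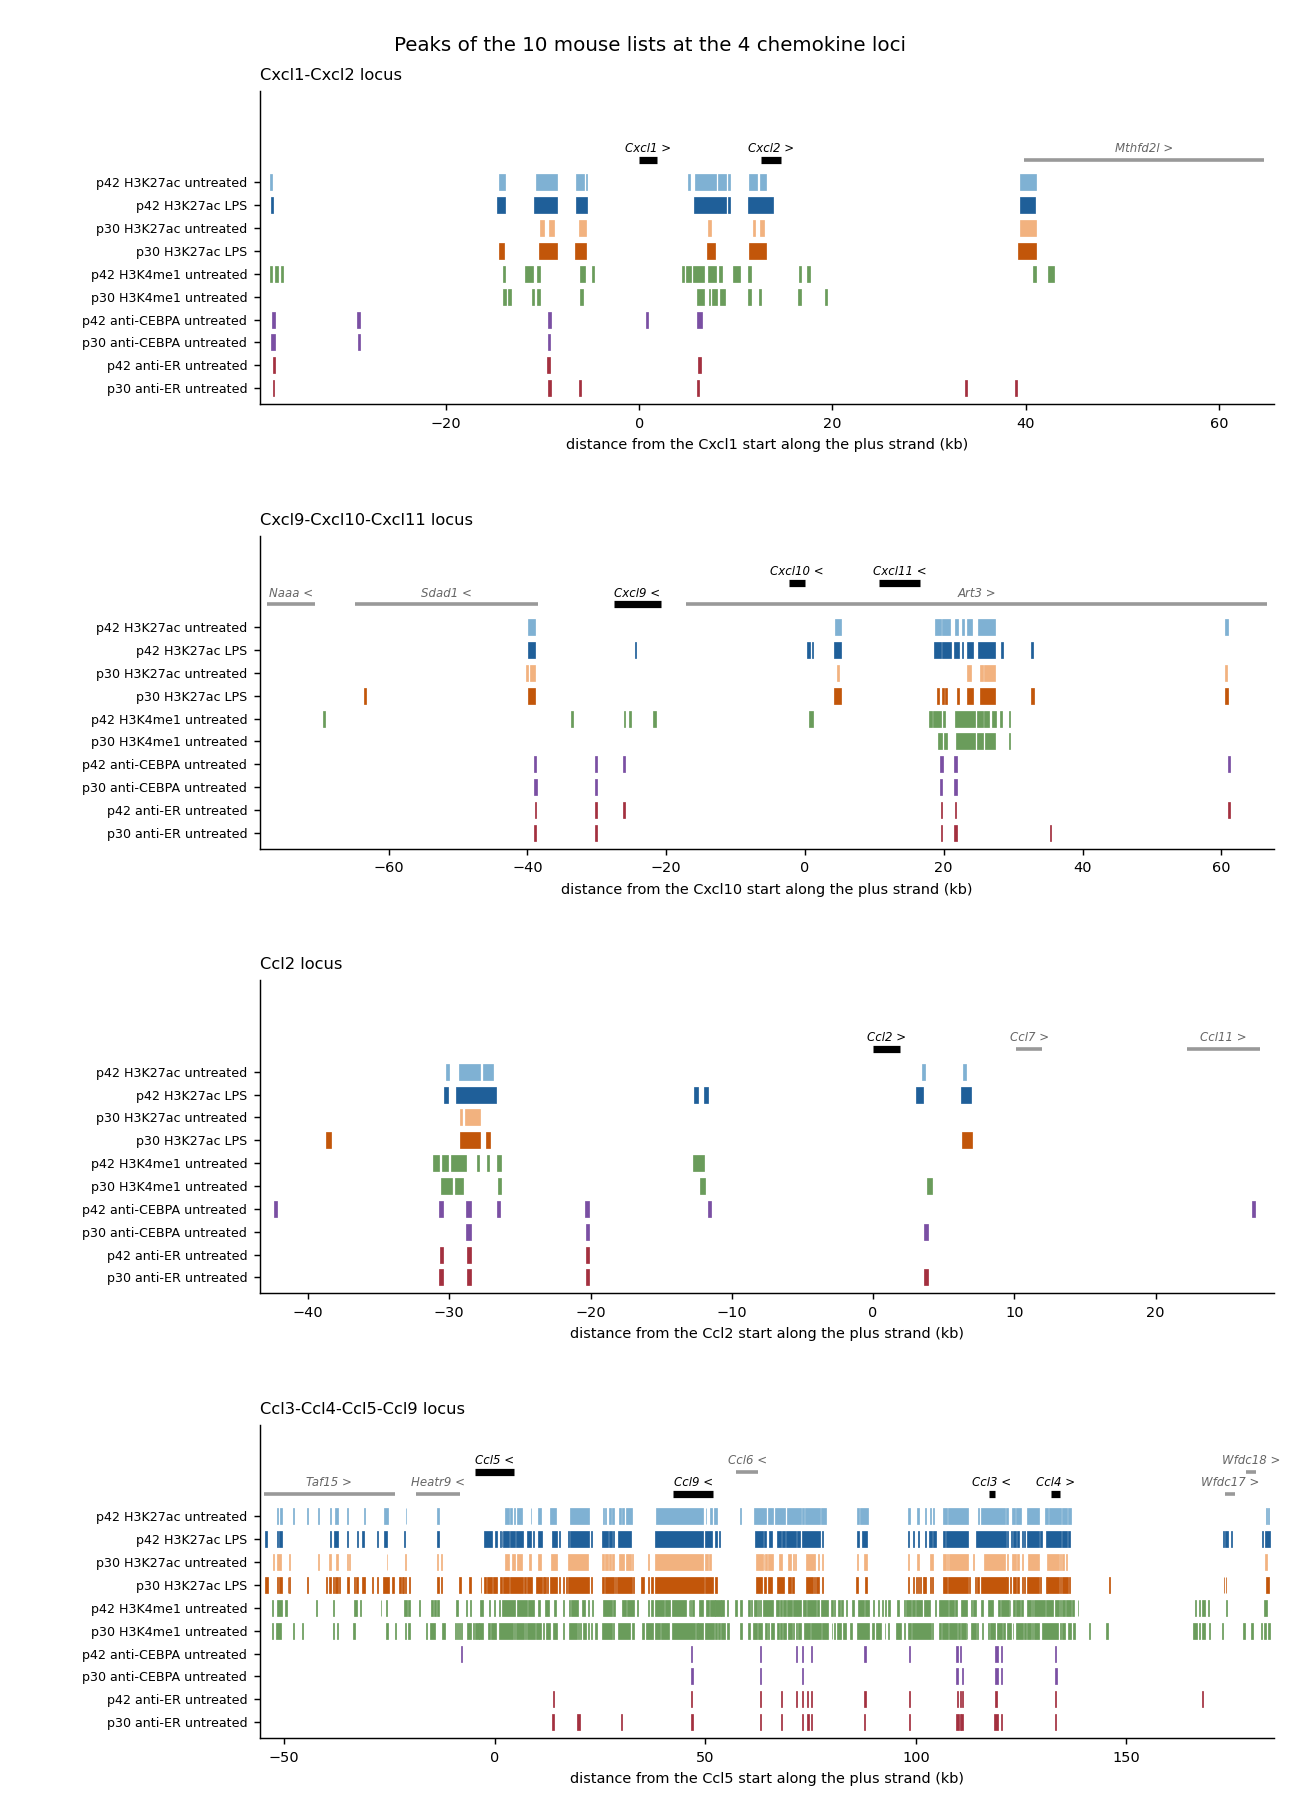
Peaks of the 10 mouse lists at the 4 chemokine loci. Each row is 1 list, each block 1 peak drawn to scale, and the horizontal axis is the distance in kb along the plus strand from the start of Cxcl1, Cxcl10, Ccl2 or Ccl5; members are drawn in black and other protein-coding genes in grey, with an arrow for the strand. The Ccl3-Ccl4-Ccl5-Ccl9 locus held 60 to 102 H3K27ac peaks per list, against 2 to 13 at each of the other loci.

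LPS was followed by more H3K27ac sequence at all 4 loci in both lines. Over the 4 loci, peaks covered 94752 bp in untreated p42 cells and 109737 bp with LPS, an increase of 15.8%, while the sequence under all peaks of the p42 lists fell by 16.8%. In p30 cells they covered 71668 bp and 106108 bp, an increase of 48.1%, while the whole list fell by 0.857%. The number of peaks rose from 86 to 98 in p42 and from 77 to 123 in p30. Taken gene by gene, 9 of 10 members had more H3K27ac sequence with LPS in p42, all but Ccl3, against 12.9% of all protein-coding genes taken in the same way. In p30 this held for 10 of 10 members, against 37.5% of all genes, and 9 of 10 had more in both lines, against 9.47%. Members of a locus share peaks, so these counts rest on 4 loci.

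**Figure D2:**
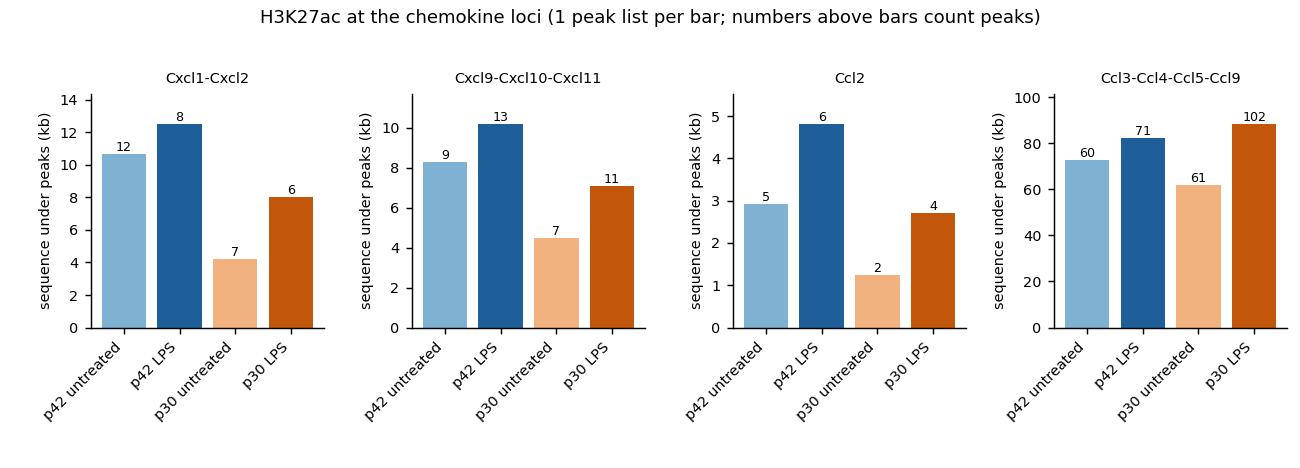
H3K27ac at each locus by cell line and treatment. Bars give the sequence under peaks in kb, each from 1 list without a replicate, and the numbers above count peaks; each panel has its own axis. In every panel the LPS bar is above the untreated bar of the same line, and at 3 of the 4 loci the p30 LPS bar is still below the untreated p42 bar (8029 against 10681 bp at Cxcl1-Cxcl2).

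Joined over the 4 lists, the H3K27ac peaks formed 128 regions at the loci, of 183190 in the genome. A region was called gained when a peak was present with LPS and absent untreated in the same line. In p42 cells 24 of 128 regions were gained (18.8%), against 8.52% of all regions, and 6 were lost (4.69%), against 22.6%. In p30 cells 53 were gained (41.4%), against 19.1%, and 4 were lost (3.13%), against 19.2%. Gain in both lines was found at 13 regions (10.2%), against 1.66%. The Ccl3-Ccl4-Ccl5-Ccl9 locus weighed heavily in these shares. It held 45 of the 53 regions gained in p30 and 12 of the 13 gained in both lines. Without it, 7 of 31 regions were gained (22.6%) and 2 lost (6.45%) in p42, 8 gained (25.8%, 95% Wilson interval 13.7 to 43.2%) and 0 lost in p30, and 1 was gained in both lines (3.23%, 0.572 to 16.2%). Both intervals, which cover counting error only, include the share of all regions. A gain here is a peak that crossed the calling threshold, and most were weak: 4 of the 13 lay in the better-ranked part (up to 50%) of the p42 LPS list and 4 in that of the p30 LPS list. Regions present in both states also moved up. In p42, 47 of 61 had a better rank with LPS (77.0%), against 47.8% of all such regions, and in p30, 39 of 52 (75.0%), against 47.1%.

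**Figure D3:**
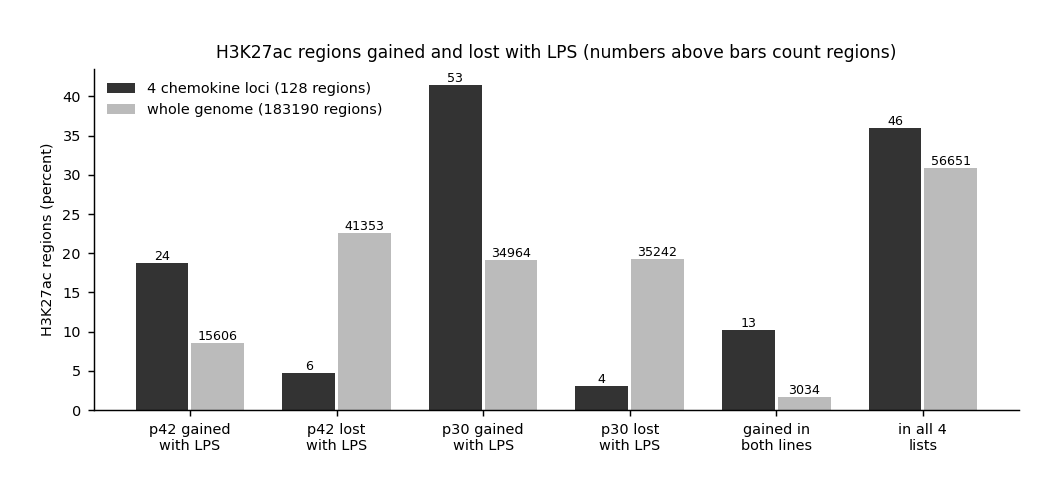
Share of H3K27ac regions in percent that were gained or lost with LPS at the 4 chemokine loci (dark, 128 regions) and in the whole genome (grey, 183190 regions), with the number of regions above each bar. At the loci gained regions outnumbered lost ones in both lines (24 to 6 in p42, 53 to 4 in p30), whereas over the genome p42 lost 41353 and gained 15606; the Ccl3-Ccl4-Ccl5-Ccl9 locus held 97 of the 128 regions.

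At the neutrophil chemokines Cxcl1 and Cxcl2 no region was gained in both lines. In p30 cells 1 of the 9 regions was gained, at -14.3 kb from Cxcl1 (rank 66729 with LPS), and in p42 cells 1 was lost, at +5.2 kb (rank 78452 untreated). The locus was covered by H3K27ac over 10681 bp in untreated p42, 12490 bp in p42 with LPS, 4239 bp in untreated p30 and 8029 bp in p30 with LPS. Even with LPS the p30 cells thus stayed below untreated p42 cells. The Cxcl2 promoter region (chr5:91050359-91052988), the only member promoter of chromosome 5 marked in every H3K27ac list, was covered over 1537, 2630, 583 and 1848 bp in the same order. Its rank went from 31922 to 16117 in p42 and from 50144 to 18928 in p30, and its fold from 5.31 to 11.1 and from 3.81 to 9.45. Cxcl1 had no promoter peak in any list, and its best-ranked upstream region lay at -9.0 kb (chr5:91028205-91030631), in an intron of the lncRNA Gm73427. Its p42 rank was 12979 untreated and 8788 with LPS, and its p30 rank 26892 and 19690. A region between the genes, at -5.5 kb from Cxcl2 (chr5:91044738-91048097), differed between the lines. In p42 cells its peaks covered 2991 bp untreated (rank 17683) and 3345 bp with LPS (rank 13042). In p30 cells they covered 372 bp (rank 106230) and 827 bp (rank 38753). The best-ranked H3K27ac region of the locus in all 4 lists, at +27.5 kb from Cxcl2, lay 121 bp from a start of the neighbouring metabolic gene Mthfd2l and moved little, from rank 3640 to 3768 in p42 and from 3637 to 3437 in p30.

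At the interferon-induced genes Cxcl9, Cxcl10 and Cxcl11, untreated p42 cells carried 4 H3K27ac regions upstream of Cxcl11 that had no peak in untreated p30 cells. With 50 kb on both sides, Cxcl9 was covered over 7857 bp in untreated p42, 9835 bp in p42 with LPS, 4170 bp in untreated p30 and 6415 bp in p30 with LPS. Cxcl11 was covered over 8306, 10185, 4069 and 6932 bp in the same order. These stretches overlap, and that of Cxcl10 had the same 7857 and 4170 bp as Cxcl9 in the untreated lists. A region in an intron of Cxcl9, at +3.6 kb, was 191 bp wide and present in 1 H3K27ac list. The region at -2.6 kb from Cxcl11 (chr5:92515412-92516302) ranked 23113 untreated and 11986 with LPS in p42, with folds of 7.41 and 15.8, had no peak in untreated p30 and ranked 116652 with a fold of 2.52 in p30 with LPS. The adjoining region at -3.4 kb (chr5:92516480-92517743) ranked 34361 and 15939 in p42, had no peak in untreated p30 and ranked 61996 in p30 with LPS. A region at -5.3 kb (chr5:92518208-92519017) ranked 49835 and 25242 in p42, had no peak in untreated p30 and ranked 112727 with LPS. These 3 lie in introns of Art3, which surrounds Cxcl10 and Cxcl11, and the last overlaps an Art3 promoter. The fourth region, at -6.1 kb, lay 37 bp from an Art3 start. It was weak, with folds of 2.52 and 2.92 in p42, and had no peak in either p30 list. Further upstream, at -9.9 kb, a region that also overlaps an Art3 promoter was closer between the lines. It ranked 11318 and 10007 in the p42 lists and 15557 and 12685 in the p30 lists.

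Cxcl10 itself had promoter H3K27ac in the p42 LPS list only, as 2 peaks. The nearer region (chr5:92496982-92497434) was 453 bp wide, with a fold of 3.28 and a rank of 60449. The other, at -1.0 kb, was 168 bp wide, with a fold of 2.60 and a rank of 95233. Their absence elsewhere is absence from lists with a threshold, not absence of the mark. A region at -4.7 kb from Cxcl10 (chr5:92500942-92501912) was present in all 4 lists, with p42 ranks of 23675 and 15938 (folds 7.10 and 11.2) and p30 ranks of 39802 and 21003 (folds 4.33 and 8.27). It improved with LPS in both lines, as the Cxcl2 promoter did. The only region of the locus gained in both lines, at -16.3 kb from Cxcl11, was weak, with folds of 3.53 in p42 and 3.51 in p30. Neither Cxcl9 nor Cxcl11 had a promoter peak in any of the 10 lists. The best-ranked region of the locus, at +18.2 kb from Cxcl9, lay 152 bp from a start of Sdad1, and its rank worsened with LPS in both lines, from 3988 to 5758 in p42 and from 5294 to 8323 in p30.

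Ccl2, the monocyte chemokine, carried no peak at its promoter in any list, and its best-ranked H3K27ac lay far upstream. The locus was covered over 2928 bp in untreated p42, 4810 bp in p42 with LPS, 1253 bp in untreated p30 and 2713 bp in p30 with LPS. These were the lowest values of the 4 loci in each list. The best-ranked region of every list, at -28.5 kb (chr11:81896841-81899684), lay in an intron of the lncRNA Gm31522 and held the CEBPA site at -28.6 kb shown above. Untreated, its peaks covered 2283 bp in p42 (rank 9544, fold 21.9) and 1253 bp in p30 (rank 15301, fold 11.4). With LPS, they covered 2844 bp in p42 (rank 7236, fold 25.5) and 1655 bp in p30 (rank 11825, fold 17.7). In untreated p30 cells it was the only H3K27ac region of the locus, made of 2 peaks, whereas p42 cells had 3 more regions. Downstream of the gene, a region at +6.3 kb lay 3792 bp from the nearest protein-coding start, that of Ccl7. This region went from rank 125964 to 34781 in p42 and was absent from untreated p30 but ranked 45292 once LPS was given.

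Ccl3, Ccl4, Ccl5 and Ccl9 lay in the most heavily marked locus. It held 97 of the 128 regions, and 36 of them were present in all 4 lists. At all loci together 46 of 128 regions were (35.9%, against 30.9% of all). Coverage was 72837 bp in untreated p42, 82252 bp in p42 with LPS, 61709 bp in untreated p30 and 88275 bp in p30 with LPS, so that p30 exceeded p42 here after LPS. Of the 13 regions gained in both lines, 12 were in this locus, and 7 of those 12 were nearest to Ccl5.

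Ccl5, a ligand of Ccr1, was the member nearest to most of these gained regions. With 50 kb on both sides it was covered over 30592 bp in untreated p42, 39900 bp with LPS, 31757 bp in untreated p30 and 53096 bp with LPS. A region over the gene body at +1.0 kb (chr11:83418796-83420782) was absent from both untreated lists and, with LPS, covered 1889 bp at rank 23134 in p42 and 1760 bp at rank 30407 in p30. A region at the main start, at -0.3 kb (chr11:83420901-83421945), was likewise absent untreated and ranked 38123 in p42 and 29039 in p30 with LPS. Before LPS, the promoter mark of Ccl5 was found only at another annotated start, in the region at -5.7 kb (chr11:83424990-83428129). With LPS that region went from rank 20553 to 12844 in p42 cells and from 18473 to 11357 in p30 cells. Another region gained in both lines, at -1.3 kb, ranked 52214 in p42 and 99817 in p30. H3K4me1 was already present in untreated cells at the regions at +1.0, -0.3 and -1.3 kb in both lines. The peaks that touched these regions were 353, 252 and 3467 bp wide in sum in p42 and 1511, 1153 and 3219 bp in p30. These widths include parts outside the regions.

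Upstream of Ccl5, an intergenic region at -20.5 kb (chr11:83438758-83443772) ranked within the best 4.56% of each H3K27ac list. In p42 it went from rank 5902 (fold 27.3) to 1989 (fold 50.5), and in p30 from 4122 (fold 38.2) to 2366 (fold 59.2). It held the best rank of the locus in the p30 LPS list. The other regions gained in both lines near Ccl5, at +32.5 and +27.9 kb in introns of Taf15 and at -15.5 and -22.9 kb, had folds of 2.49 to 3.10 in both LPS lists.

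Ccl3 and Ccl4, which attract monocytes and T cells, were marked at their promoters in every H3K27ac and H3K4me1 list. In the Ccl3 promoter region (chr11:83535384-83542709) peaks covered 6048 bp before and 7095 bp after LPS in p42 (p30, 5149 and 6657 bp). The rank of the region went from 3081 to 3920 in p42 and from 2509 to 3446 in p30. It thus had more covered sequence and a worse rank with LPS in both lines. The Ccl4 promoter region (chr11:83552123-83555856) gained rank, from 8423 to 5681 in p42 and from 12561 to 11234 in p30. The strongest region of the locus lay downstream of Ccl3 at +8.7 kb (chr11:83527710-83533726), in the lncRNA Gm53692, and held 3 CEBPA summits. Its rank went from 924 to 461 in p42 and from 1509 to 2499 in p30, and its fold from 77.4 to 78.0 in p42 and from 61.8 to 40.4 in p30. Its -log10 q moved against the rank in both lines, from 922 to 777 in p42 and from 668 to 678 in p30. This was the region with the best rank in both p42 lists and in the untreated p30 list. Ccl3 was the 1 member with less sequence after LPS in p42, from 37405 to 36908 bp, whereas in p30 it rose from 26159 to 31267 bp. Ccl4 rose with LPS from 26953 to 29924 bp (p42) and from 22090 to 27084 bp (p30). Regions gained in both lines near these genes, at +19.5 kb from Ccl3 and at -6.2, -2.5, +41.1 and +41.6 kb from Ccl4, ranked between 32064 and 118404, and the last 2 lie at promoters of Wfdc17.

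Ccl9, a ligand of Ccr1, had the widest region, 11517 bp over its body and main promoter (chr11:83459407-83470923). Peaks covered nearly the same length of it in all 4 lists (11328, 11467, 11474 and 11517 bp). Its rank went from 4233 to 4034 in p42 and from 6836 to 6250 in p30. Its fold went from 42.4 to 36.9 in p42 and from 22.7 to 33.7 in p30, and its place in the shorter p42 LPS list went from the best 3.27% to the best 3.77%. The region around -26.7 kb upstream of Ccl9 (chr11:83494361-83498682) lay in the lncRNA E230016K23Rik. The nearest protein-coding start was that of Ccl6, 12282 bp away. This region differed between the lines. It lost rank with LPS in both lines, from 8011 to 9475 (p42) and from 19971 to 28792 (p30). With 50 kb on both sides, Ccl9 was covered over 44835 bp in untreated p42, 49676 bp after LPS, 37332 bp in untreated p30 and 52461 bp after LPS.

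**Figure D4:**
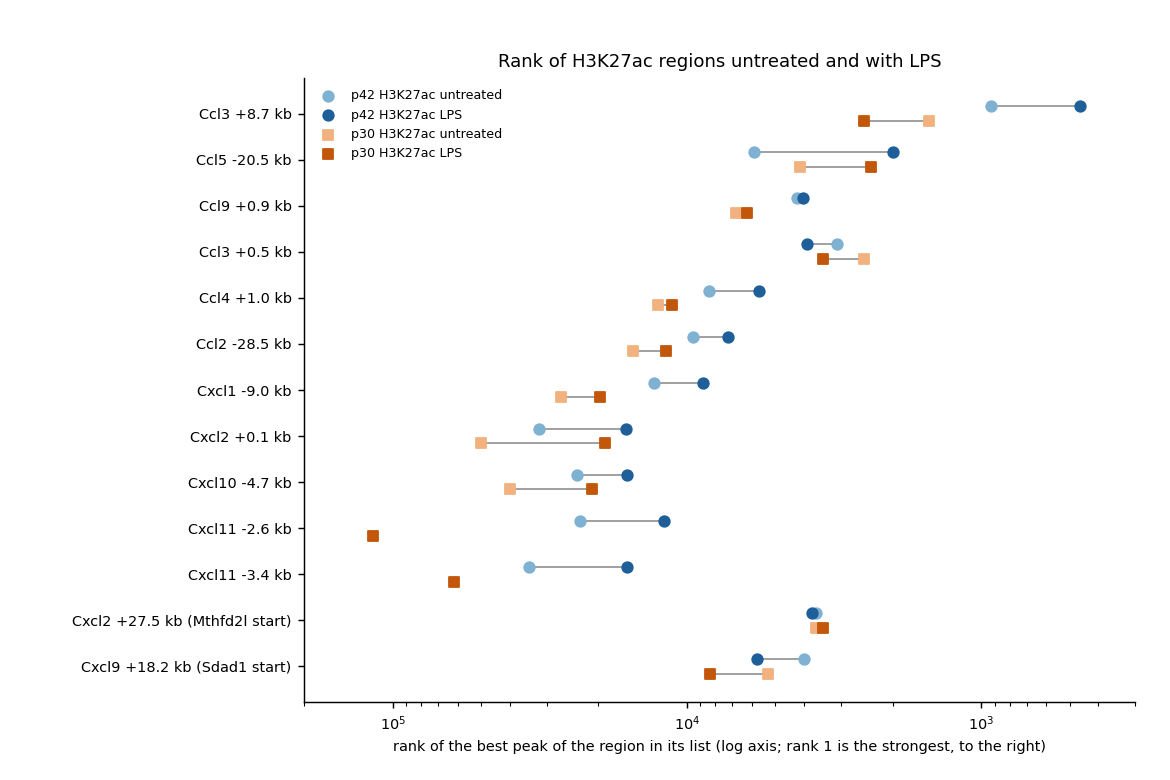
Rank of the best peak of 13 H3K27ac regions in its list, on a log axis with stronger peaks to the right. Circles are p42 and squares p30, pale untreated and dark with LPS, and a grey line joins both states of a line; a missing symbol means no peak. At Ccl5 -20.5 kb, Ccl2 -28.5 kb, Cxcl1 -9.0 kb, the Cxcl2 promoter (+0.1 kb) and Cxcl10 -4.7 kb both lines moved right with LPS, whereas at Ccl3 +8.7 kb p42 moved right and p30 left.

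Between the lines, the untreated regions found in 1 line only were all of p42 at 3 loci, and of either line at the locus of Ccl3, Ccl4, Ccl5 and Ccl9. Of 75 regions present in an untreated list, 48 were in both (64.0%, against 52.8%), 19 in p42 only (25.3%, against 19.9% of all untreated regions) and 8 in p30 only (10.7%, against 27.3%). At the 3 other loci 11 of 22 regions were in p42 only and 0 in p30 only, whereas at the Ccl3-Ccl4-Ccl5-Ccl9 locus there were 8 of each among 53. With LPS, 69 of 121 regions were in both lines (57.0%, against 49.4%), 16 in p42 only (13.2%, against 11.8%) and 36 in p30 only (29.8%, against 38.7%), and 33 of those 36 lay at the Ccl3-Ccl4-Ccl5-Ccl9 locus. Found in p42 only, both untreated and with LPS, were 6 of 128 regions (4.69%, against 2.28% of all), and in p30 only 4 (3.13%, against 6.67%). Untreated H3K27ac sequence was higher in p42 for 9 of 10 members, all but Ccl5, against 34% of all genes. With LPS it was higher in p42 for 8 of 10, all but Ccl5 and Ccl9, against 13.5%. The median member had 10572 bp in untreated p42 and 4239 bp in untreated p30, where the median gene had 9212 and 9480 bp. With LPS the median member had 12371 bp in p42 and 8029 bp in p30, where the median gene had 7522 and 9348 bp. Members of a locus share peaks, so these counts and medians of members rest on 4 loci.

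H3K4me1 peaks were likewise fewer in p30 at those 3 loci and not at the locus of Ccl3, Ccl4, Ccl5 and Ccl9. The p42 list held 161 peaks at the loci and the p30 list 150, with 120 and 126 at the Ccl3-Ccl4-Ccl5-Ccl9 locus, 19 and 13 at Cxcl1-Cxcl2, 15 and 6 at Cxcl9-Cxcl10-Cxcl11 and 7 and 5 at Ccl2. A p30 peak overlapped 78.3% of the p42 peaks here and 77.3% of the whole p42 list. For the p30 peaks the shares overlapped by p42 were 78.7% here and 55% of the whole list. At the Cxcl9-Cxcl10-Cxcl11 locus 6 of 6 p30 peaks and 7 of 15 p42 peaks were shared. The p42 list alone had a peak at the Cxcl10 promoter (499 bp, rank 97257). The best p42 peak of that locus ranked 1835. Its summit, at -6.9 kb from Cxcl11, lay in the H3K27ac region at -7.1 kb, which was present in all 4 H3K27ac lists. This H3K4me1 peak also lay over the region at -5.3 kb, where the p30 peak ranked 20472. The best-ranked H3K4me1 peak at the loci was the same in both lists, at -14.5 kb from Ccl9, with ranks of 481 in p42 and 314 in p30. It lay over the H3K27ac region at -14.3 kb, which is at a promoter of Ccl6, a chemokine gene that is not a member. At Ccl2 the best peak ranked 25463 in p42, at -30.4 kb, and 8988 in p30, at -30.5 kb. Of the 13 regions gained with LPS in both lines, 7 held H3K4me1 in untreated p42 cells and 7 in untreated p30 cells (53.8% each), while for all regions of the genome gained in both lines the shares were 30.9% and 39.3%.

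CEBPA sites were found at all 4 loci, and 10 of 10 members had a site within 50 kb in every list. Sites are common at this distance: 86.7% of all genes had one in the p42 anti-CEBPA list, 79.6% in p30 anti-CEBPA, 70.5% in p42 anti-ER and 79.6% in p30 anti-ER. The p42 anti-CEBPA list held 31 sites, the p30 anti-CEBPA list 18, the p42 anti-ER list 28 and the p30 anti-ER list 32. Joined, they made 43 sites, of which 14 were in all 4 lists (32.6%, against 20.9% of all sites). Another 12 were in both lines but not all lists (27.9%, against 32.9%). In p42 only were 10 (23.3%, against 28.4%) and in p30 only 7 (16.3%, against 17.7%). Both antibodies found 3 sites of p42 only (6.98%, against 1.94% of all sites) and 1 of p30 only (2.33%, against 1.65%). Those of p42 were at -23.5 kb from Ccl9, +5.3 kb from Cxcl9 and -44.5 kb from Cxcl11, and that of p30 at +3.8 kb from Ccl2. The best-ranked site of p42 only by the anti-CEBPA list was at +7.9 kb from Ccl5 (rank 22325, fold 8.16), and that of p30 only by the anti-ER list at -6.1 kb from Cxcl1 (rank 21204, fold 6.04).

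The strongest CEBPA site lay at -24.9 kb from Ccl9, in introns of the lncRNAs E230016K23Rik and Gm38933, and nearer to the start of Ccl6. It ranked 80 in the p42 anti-CEBPA list, 67 in p30 anti-CEBPA, 97 in p42 anti-ER and 99 in p30 anti-ER, with folds of 71.7, 86.1, 79.8 and 94.0. Its rank was close in both lines, whereas its summit was inside an H3K27ac peak in p42 cells only, untreated and with LPS. The H3K27ac region that held the summit, at -26.7 kb from Ccl9, also had peaks in both p30 lists, which did not reach the summit. The Cxcl11 site at -5.1 kb ranked 2248, 1822, 2278 and 2868 in the same order of lists, and its summit was inside H3K27ac in p42 only. The region that held it, at -5.3 kb, had a p30 peak with LPS and none untreated. At -3.0 kb from Cxcl11 the ranks were 15070, 18830, 11699 and 18084, and the summit lay between the H3K27ac regions at -2.6 and -3.4 kb, inside neither. The Ccl2 site at -28.6 kb ranked 1666, 2612, 1518 and 2512 and was inside H3K27ac in all 4 lists, as was the Cxcl1 site at -9.3 kb, with ranks of 6107, 8809, 1798 and 3165. Another strong site of the Cxcl9-Cxcl10-Cxcl11 locus, at +9.3 kb from Cxcl9, ranked 3714, 4302, 11888 and 17362 and was outside H3K27ac in all lists.

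Of the 14 sites in all 4 lists, 4 had a better rank in p30 with both antibodies, 5 had a better rank in p42 with both, and at 5 the antibodies differed. Those with a better rank in p42 were at -28.6 kb from Ccl2, -9.3 and -37.8 kb from Cxcl1, +9.3 kb from Cxcl9 and -3.0 kb from Cxcl11. The 4 with a better rank in p30 follow. At +1.4 kb in an intron of Ccl9 the anti-CEBPA rank was 12555 in p42 and 2537 in p30, and the anti-ER rank 7652 and 2014. At +9.0 kb from Ccl3, in the strongest H3K27ac region, anti-CEBPA ranked it 10356 (p42) and 5066 (p30), and anti-ER 1451 and 628. The site at -0.4 kb from the Ccl3 start was at ranks 21929 and 5659 by anti-CEBPA, and at 4388 and 3427 by anti-ER. Near the Sdad1 start, at +18.0 kb from Cxcl9, anti-CEBPA gave ranks of 19206 and 5606, and anti-ER of 11028 and 3742. The lists differ in length. By place in the list in percent, 4 sites were better in p30 with both antibodies and 4 in p42, and at 6 the antibodies differed. The site at +9.3 kb from Cxcl9 then left the p42 group, with anti-ER places of 51.14% in p42 and 51.06% in p30. The lines were profiled in 1 library each, so these differences have no replicate check. The site at -37.8 kb from Cxcl1 ranked 12208, 13404, 5975 and 23131 in the p42 anti-CEBPA, p30 anti-CEBPA, p42 anti-ER and p30 anti-ER lists. The site at -20.2 kb from Ccl2 ranked 18761, 23854, 15031 and 11467 in the same order. Both were outside H3K27ac.

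Of the 26 sites found in both lines, 15 had their summit inside untreated H3K27ac in both lines (57.7%, against 24.0% of all such sites). A further 4 had it in p42 alone (15.4%, against 5.23%), 0 in p30 alone (against 2.29%) and 7 in neither (26.9%, against 68.5%). The 4 in p42 alone were those at -24.9 kb from Ccl9, -5.1 kb from Cxcl11, -6.2 kb from Cxcl2 and +18.0 kb from Cxcl9. The H3K27ac regions that held the summits near Ccl9, Cxcl2 and Cxcl9 also had untreated p30 peaks, which did not reach the summit. The 13 regions gained with LPS in both lines held a CEBPA site of 0 of the 4 lists, and such sites were rare in gained regions everywhere. For all regions of the genome gained in both lines the shares with a site were 3.13% for p42 anti-CEBPA, 2.70% for p30 anti-CEBPA, 1.91% for p42 anti-ER and 3.86% for p30 anti-ER. CEBPA was profiled without LPS, so sites that appear only with LPS were not measured. Of the 46 regions present in all 4 H3K27ac lists, 13, 9, 15 and 17 held a site in the same order of lists (28.3%, 19.6%, 32.6% and 37.0%), against 15.5%, 13.6%, 16.4% and 22.5% of all such regions of the genome.

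At the promoters, taken from 1000 bp upstream to 100 bp downstream of any start, about as many members were marked by H3K27ac as of all genes. Ccl3, Ccl4, Ccl5, Ccl9 and Cxcl2 carried H3K27ac in both untreated lists, which is 5 of 10, against 52.7% of all promoters in p42 and 52.4% in p30. With LPS there were 6 of 10 in p42, by the addition of Cxcl10, against 52.2%, and the same 5 in p30, against 53.7%. Cxcl1, Cxcl9, Cxcl11 and Ccl2 had no promoter peak in any of the 10 lists. H3K4me1 was present at 5 promoters in each line, against 27.4% and 32.6% of all, namely Ccl3, Ccl4, Ccl5 and Ccl9 in both, Cxcl10 in p42 and Cxcl2 in p30. CEBPA was found at 2 of 10 promoters in each of the 4 lists, Ccl3 at its main start and Ccl9 at another start, against 11.1%, 10.1%, 9.43% and 14.8% of all promoters.

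**Figure D5:**
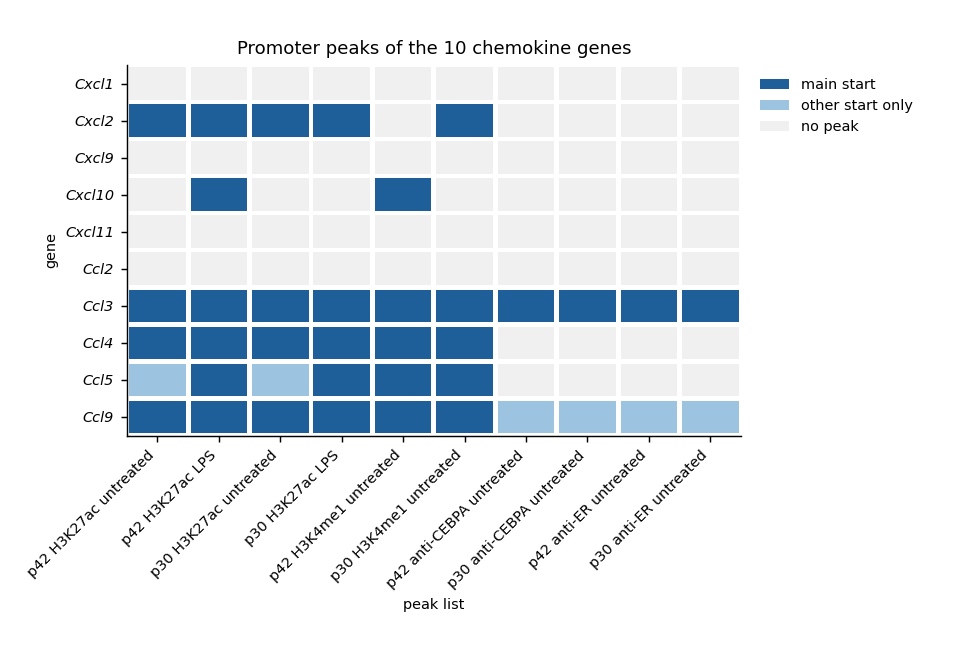
Promoter peaks of the 10 chemokine genes (rows) in the 10 peak lists (columns). Dark blue is a peak at the main start, pale blue a peak at another annotated start only, and grey no peak. Cxcl1, Cxcl9, Cxcl11 and Ccl2 are grey throughout, Cxcl10 is marked in the p42 H3K27ac LPS and p42 H3K4me1 lists, and Ccl5 gains H3K27ac at its main start with LPS in both lines.

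The other chemokine genes gave few promoter changes. Of 23 genes of that list, 8 carried promoter H3K27ac in untreated p42, 7 in p42 with LPS, 7 in untreated p30 and 8 in p30 with LPS (34.8%, 30.4%, 30.4% and 34.8%), where the shares of all promoters were 52.7%, 52.2%, 52.4% and 53.7%. Ccl17, a ligand of Ccr4, gained it in both lines, against 0.694% of all promoters gaining it in p42 and 1.77% in p30, while Cxcl5 and Ppbp, which bind Cxcr2, lost it in p42, against 1.2% of all promoters, and 0 of 23 lost it in p30, against 0.473%. Cxcl3, another Cxcr2 ligand, was marked in all 4 lists. Of 18 receptor genes 10, 11, 12 and 12 were marked in the same order (55.6%, 61.1%, 66.7% and 66.7%, against the same shares of all promoters). Ccr1, Ccr2, Cxcr2 and Cxcr3 were among those marked in all 4 lists. Ccr7 and Ccr9 were marked in p30 only, Xcr1 in p42 only, and Cxcr5 gained the mark with LPS in p42 and carried it in both p30 lists. The share of all promoters marked in 1 line only was not computed, so these single genes have no background beside them.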

How the data were processed

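The series holds 40 ChIP-seq samples, of which 38 are from mouse HPC-7 cells. The 2 human samples were not analysed here, and 19 samples are inputs, which entered only through the authors' peak calls. Per the authors' methods and processing notes, reads were trimmed with Trim Galore 0.6.6 and aligned with Bowtie2 to mm39, Picard-marked duplicates were left out, and MACS2 was run against input for narrow peaks at a q-value of 0.05. The deposited lists were called on 3 pooled replicates for each H3K27ac group, on 2 for H3K4me1, and on 1 library for each CEBPA or ER list. Each deposited peak carries a score, a fold enrichment (signal) over input, a −log10 p and a −log10 q given by the authors. Replicates are separate samples in the labels, but no values per replicate were used, so no difference has a replicate check. A list's length and peak widths move with the depth and enrichment of its libraries, which are unknown here.

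Peaks on chromosomes 1 to 19, X and Y were kept. Within a list they were ranked by −log10 p, ties by fold and then position. Starts and gene bodies came from GENCODE M39, with the canonical transcript as the main start. A locus was a gene body with 50 kb on both sides, a promoter ran from 1000 bp upstream to 100 bp downstream of any start, and regions were peaks of the 4 H3K27ac lists joined where they overlapped by at least 1 bp. CEBPA sites were peaks of the 4 CEBPA and ER lists joined likewise. Covered sequence counts each base under a peak 1 time. Motifs were searched on both strands of GRCm39 in 250 bases upstream of the main start and in 201 bases around a summit. The rule for regions and sites to name took the best-ranked H3K27ac region of each locus and list, every region gained in both lines, up to 3 CEBPA sites per locus held by all 4 lists, by p42 anti-CEBPA rank, and the best site of 1 line only. Other named regions and sites were chosen after their values were seen. The scripts were tested on simulated peaks, and used Python 3.11.15, pandas 2.3.3, NumPy 2.4.6 and matplotlib 3.10.9. The genes, gene lists and comparisons were chosen with earlier results of these data known.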

Additional observations from a re-analysis of the deposited data

Results flagged for a closer look

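Some regions moved in opposite directions with LPS in the p42 and p30 lines, and the difference was not tested, since each value comes from 1 list. The H3K27ac region at +8.7 kb from Ccl3 went from rank 924 to 461 in p42 and from 1509 to 2499 in p30. Its -log10 q moved against the rank, from 922 to 777 in p42 and from 668 to 678 in p30. A rank also depends on the other peaks of its list. The region at +27.5 kb from Cxcl2, at the start of Mthfd2l, went from rank 3640 to 3768 in p42 and from 3637 to 3437 in p30. A weak region in an intron of Taf15, at +44.4 kb from Ccl5, was lost in p42, where it ranked 60703 untreated, and gained in p30, where it ranked 126950 with LPS.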

How the results depend on the processing

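Of 119 values recomputed under other settings, 98 stayed within 1.5 times the reported value and 21 did not. Only the changes in covered sequence with LPS have a sign and could change direction, and 0 of them did. The other values are counts, which cannot. With peaks of q under 1e-05 only, H3K27ac peaks at the loci numbered 43 in untreated p30 and 73 in p30 with LPS, and 3 untreated regions were in p30 only. In that setting 34 regions were gained and 1 lost in p30, and 7 were gained in both lines. The shares of all H3K27ac regions of the genome were then 17.5%, 15.5% and 1.69%, and 18.7% for untreated regions in p30 only. H3K4me1 peaks numbered 101 in p42 and 99 in p30. With equal numbers of best-ranked peaks per list, 4 untreated regions were in p30 only, against 19% of all regions. With 25 kb on both sides of the genes, 5 untreated regions were in p30 only, against 22.3%. There, 2 regions were lost in p42 (against 22.6%) and 1 in p30 (against 19.2%). The number of all regions at the loci in these settings is not given, so these counts are not shares of the loci. Where presence needed q under 1e-05 and absence no peak at 0.05, 10 regions were gained and 2 lost in p42, 23 gained and 0 lost in p30, and 4 gained in both. The shares of all regions were then 1.99%, 6.24%, 4.82%, 3.65% and 0.316%. Where peaks matched only if 50% of each overlapped, 50 of 98 peaks were gained (51.0%, against 49.3% of the whole list) and 38 of 86 lost (44.2%, against 58.0%) in p42, and 85 of 123 were gained (69.1%, against 52.9%) and 39 of 77 lost (50.6%, against 51.8%) in p30. The shares gained in p42 and lost in p30 were then close to those of the whole lists. This setting counts peaks and not regions, so wide peaks split in 1 list count as changed. Without regions at promoters of other genes, an alternative chosen after seeing the data, covered sequence still rose with LPS, by 17.2% in p42 and 51.7% in p30. No paired analysis was possible because the lists pool the replicates and carry no replicate numbers, and for the same reason no replicate could be left out. A peak missing from a list shows only that it did not pass the authors' threshold.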
